A study of Mus musculus with 3 samples.

Results

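The genes described here are 5 S100 genes (S100a4, S100a6, S100a10, S100a11 and S100a13) and 5 annexin genes (Anxa1, Anxa2, Anxa5, Anxa6 and Anxa11). They were taken by symbol from a table of raw read counts that held 46983 genes, each of the 10 symbols standing on exactly 1 row. The cells came from the leptomeninges, the thin inner membranes around the brain, of vehicle-treated mice; the membranes were microdissected and dissociated, and cells were sorted by flow cytometry. All 3 libraries carried the label pia enriched fraction, the vehicle arm was the only group, and the strain, age and genotype of the mice, the gate of the sort and whether animals were pooled were not given in the sources used here. No treated or untreated group was analysed, so each comparison below is between libraries or between genes.

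S100 proteins are small EF-hand proteins that mostly act as dimers, and calcium opens a surface on them that grips short stretches of partner proteins. Annexins bind negatively charged membrane lipids when calcium rises, and several carry in their N-terminal tail the stretch that an S100 dimer holds, so that a dimer with a pair of annexins can bridge adjacent membranes or anchor the cortical cytoskeleton. The best known of these complexes joins S100a10, whose own calcium loops are inactive, to Anxa2. In fibroblasts such complexes are known for membrane repair, for exocytosis and for gathering plasminogen at the cell surface.

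Gene counts came to between 21002860 and 28704952 per library. They were converted to counts per 1000000 (CPM) with library sizes scaled by TMM, on which 3 counts, the most that a count of 0 allows, equal between 0.101 and 0.152 CPM. Such floors cover counting error only, as PCR copies cannot be told from separate molecules here. The sorted cells carried fibroblast transcripts in every library: 6 fibroblast markers (Col1a1, Col1a2, Col3a1, Dcn, Lum, Pdgfra) summed to 23467, 29100 and 25292 CPM in libraries 1, 2 and 3. Other cell types differed between libraries. The sum of 8 macrophage and microglia markers was 15.4, 246 and 681 CPM, that of 5 choroid plexus markers 93.4, 3201 and 4887 CPM, and that of 5 lymphocyte markers 2.68, 53.7 and 62.1 CPM in the same order. In bulk samples, fewer cells of a type and less RNA per cell cannot be told apart. The libraries also differed by trends with GC content and length, described where they touch a result.

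Promoter windows from RefSeq (GRCm38.p6), 250 bases before to 50 after the start, were found for 8 of the 10 genes; S100a10 and Anxa6 had no entry. A few of these windows are shown because they belong to the 4 genes with the widest range between libraries (S100a4, S100a6, S100a13 and Anxa1) and to the pair with the narrowest (Anxa5 and S100a11), as described further on; they were chosen after those values were known. Each is written 5′ to 3′ on the strand of its gene, with matches on either strand to 4 motifs in capitals: AP-1 (TGANTCA), the TATA box (TATAAA), the CCAAT box (CCAAT) and the GC box (GGGCGG). No match in these windows overlapped another.
S100a4 (chr3:90603520-90603819, plus strand): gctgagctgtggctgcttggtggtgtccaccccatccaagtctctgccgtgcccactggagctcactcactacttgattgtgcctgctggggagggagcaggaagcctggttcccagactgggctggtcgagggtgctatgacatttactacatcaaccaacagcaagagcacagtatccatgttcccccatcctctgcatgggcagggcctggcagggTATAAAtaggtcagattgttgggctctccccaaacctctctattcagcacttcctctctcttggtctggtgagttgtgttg
S100a6 (chr3:90612644-90612943, plus strand): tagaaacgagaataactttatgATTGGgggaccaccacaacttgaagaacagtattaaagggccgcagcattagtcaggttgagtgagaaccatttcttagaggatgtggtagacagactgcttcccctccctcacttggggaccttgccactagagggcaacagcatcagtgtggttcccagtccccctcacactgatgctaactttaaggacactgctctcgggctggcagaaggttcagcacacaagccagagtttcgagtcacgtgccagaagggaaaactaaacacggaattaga
S100a13 (chr3:90514185-90514484, plus strand): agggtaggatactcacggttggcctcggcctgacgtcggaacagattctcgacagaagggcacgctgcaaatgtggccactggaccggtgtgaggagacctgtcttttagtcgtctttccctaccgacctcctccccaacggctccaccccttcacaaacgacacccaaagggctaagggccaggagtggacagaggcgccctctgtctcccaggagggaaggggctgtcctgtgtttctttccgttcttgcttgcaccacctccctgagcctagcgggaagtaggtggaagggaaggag
Anxa1 (chr19:20390622-20390921, minus strand): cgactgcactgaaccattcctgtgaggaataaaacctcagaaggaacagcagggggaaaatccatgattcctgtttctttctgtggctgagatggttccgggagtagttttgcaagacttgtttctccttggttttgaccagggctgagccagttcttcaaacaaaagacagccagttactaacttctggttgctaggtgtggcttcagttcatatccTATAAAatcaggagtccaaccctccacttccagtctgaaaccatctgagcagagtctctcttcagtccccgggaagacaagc
S100a11 (chr3:93520246-93520545, plus strand): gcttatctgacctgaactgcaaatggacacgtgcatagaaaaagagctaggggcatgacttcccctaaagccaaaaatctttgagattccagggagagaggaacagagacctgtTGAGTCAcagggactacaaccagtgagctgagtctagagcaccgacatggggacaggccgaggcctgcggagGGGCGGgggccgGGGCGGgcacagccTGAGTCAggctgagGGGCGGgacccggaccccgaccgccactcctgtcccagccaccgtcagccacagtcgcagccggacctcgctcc
Anxa5 (chr3:36475838-36476137, minus strand): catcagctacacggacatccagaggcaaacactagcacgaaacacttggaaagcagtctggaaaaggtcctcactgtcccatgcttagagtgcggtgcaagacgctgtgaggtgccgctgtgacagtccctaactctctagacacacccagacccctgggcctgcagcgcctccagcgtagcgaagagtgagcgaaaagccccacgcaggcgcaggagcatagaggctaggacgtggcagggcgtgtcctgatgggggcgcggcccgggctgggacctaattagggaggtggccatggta

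S100a4 and Anxa1 each held a TATA box, starting 31 and 32 bases before the start of the gene, a motif found in 13.6% of the 32851 windows of this length. S100a6 held a CCAAT box on the opposite strand, starting 228 bases before its start; 37.4% of windows hold one. S100a11 held 2 AP-1 matches and 3 GC boxes, motifs present in 7.81% and 35.7% of windows, and Anxa5 and S100a13 held none of the 4. Of the windows found but not shown, Anxa2 held a TATA box, 1 AP-1 match and 3 GC boxes, and Anxa11 held 3 GC boxes. CG dinucleotides numbered 2 in S100a4, 3 in Anxa1 and 6 in S100a6, against 15 in S100a11 and 16 in Anxa5, with a median of 7 over all windows. S100a13 had 14, Anxa2 13 and Anxa11 25, with a 1.63-fold range between libraries for Anxa2 and 2.18-fold for Anxa11. The number of CG dinucleotides thus did not order the genes by their variation. These are letters in a window and not sites shown to be bound.

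The 10 genes together took 0.392%, 0.346% and 0.509% of gene counts in libraries 1, 2 and 3 (0.416% ± 0.084, SD, n = 3). Most of that was annexin RNA. Their median was 174 CPM, against 17.99 CPM over the 14409 genes that passed the filter on low counts, which all 10 passed. All later values are means ± SD over the 3 libraries unless the libraries are given singly.

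Anxa2 (ENSMUSG00000032231.14, chr9:69453620-69491795, plus strand), the annexin that S100a10 binds, was at 1746, 1292 and 2103 CPM in libraries 1, 2 and 3. Its mean of 1714 ± 406 CPM lay at percentile 99.6 of the genes tested. Anxa5 (ENSMUSG00000027712.13, chr3:36448923-36475894, minus strand), which coats membranes that expose phosphatidylserine, was at 1135, 1055 and 1120 CPM (1103 ± 43.0 CPM). The 3 libraries were nearly level for this gene: the highest exceeded the lowest 1.08-fold, a smaller range than in all but 1.76% of the genes tested.

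Anxa1 (ENSMUSG00000024659.14, chr19:20373428-20390944, minus strand), which acts against inflammation through formyl peptide receptors, was at 274, 350 and 759 CPM. Library 3 was 2.77-fold above library 1, and libraries 1 and 2 lay close together. Anxa6 (ENSMUSG00000018340.13, chr11:54979108-55033445, minus strand), a large annexin with a duplicated core, was at 351, 266 and 278 CPM, a 1.32-fold range. Anxa11 (ENSMUSG00000021866.15, chr14:25842156-25886804, plus strand), which carries a long N-terminal tail and binds S100a6 and Pdcd6, was the lowest of the 5 annexins at 32.8, 15.02 and 18.1 CPM. Of the 50-base windows of the annotated Anxa11 transcripts, 16.2% also stood in transcripts of other genes (Anxa11os, Gm2260 and Gm2274), where reads could be lost or split by the counting.

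S100a11 (ENSMUSG00000027907.4, chr3:93520488-93526287, plus strand), the dimer partner of Anxa1 and Anxa2, was at 198, 155 and 180 CPM (178 ± 21.7 CPM). Its value is uncertain, because 41.1% of its 50-base windows also stood in transcripts of Gm12854, Gm29240 and Gm7665. S100a10 (ENSMUSG00000041959.14, chr3:93555080-93564643, plus strand) was at 191, 112 and 206 CPM (169 ± 50.6 CPM), low in library 2 and nearly equal in the others. S100a6 (ENSMUSG00000001025.8, chr3:90612882-90624181, plus strand), also called calcyclin, was at 159, 66.2 and 248 CPM (158 ± 90.8 CPM), with library 3 at 3.74-fold library 2. These 3 S100 genes had means within 1 SD of each other.

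S100a13 (ENSMUSG00000042312.9, chr3:90514435-90524581, plus strand), known for the release of Fgf1 and Il1a by a route outside the secretory pathway, was at 70.8, 24.2 and 51.6 CPM. S100a4 (ENSMUSG00000001020.8, chr3:90603771-90606045, plus strand), a binder of non-muscle myosin that is often used as a fibroblast marker, was the lowest of the 10 at 4.85, 3.09 and 12.5 CPM (6.82 ± 5.02 CPM, percentile 30.6). It stood on 96, 92 and 325 reads, and without library 3 its mean was 3.97 CPM. The annotation places another gene, Gm42674 (chr3:90601904-90605885), across it on the same strand: 302 of the 584 exon bases of S100a4 (51.7%) are shared, and Gm42674 itself had 1, 0 and 0 counts. Reads in bases shared by genes can go to the count of ambiguous reads instead, so the level of S100a4 may be understated in this table. Divided by the 282 unshared bases, the full CPM of S100a4 came to 17.2, 10.96 and 44.4 per kilobase. Divided by all its exon bases it came to 8.30, 5.29 and 21.5. The first was an alternative chosen after seeing the data. Reads were not recounted for it, so it assumes that every counted read came from the unshared bases.

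**Figure D1:**
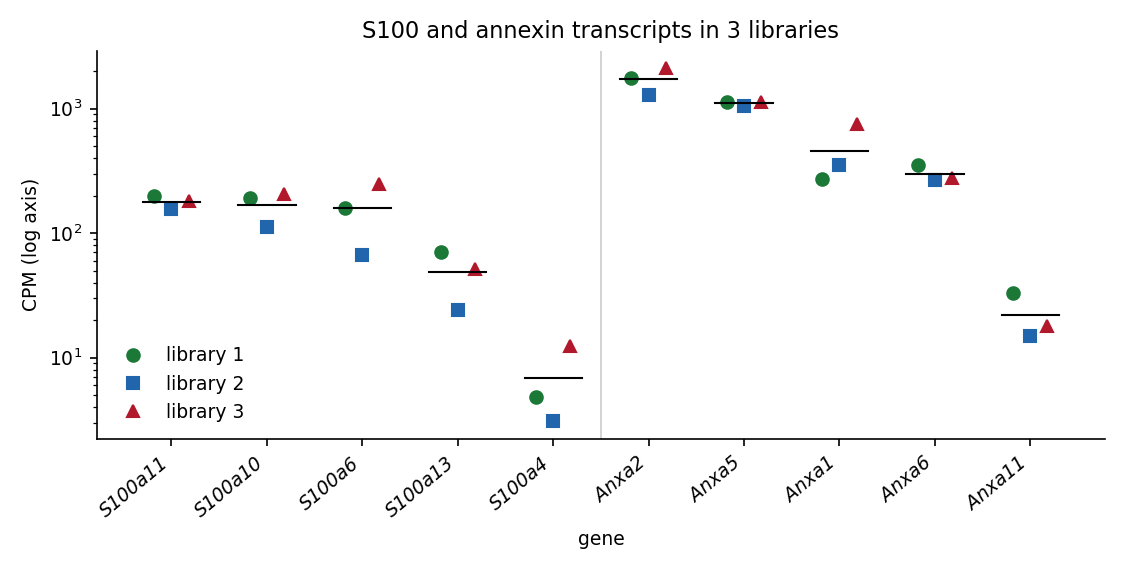
CPM on a log axis for the 5 S100 genes and 5 annexin genes; each point is 1 library and each bar the mean of 3. Anxa2 and Anxa5 stand above 1000 CPM in every library and S100a4 below 13, and the points of Anxa5 nearly coincide while those of S100a6 and S100a4 spread.

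Levels of different genes were compared per kilobase of exon. On that scale the order, by the mean of the logs, was Anxa5 (621 ± 24.2 CPM per kilobase), Anxa2 (459 ± 109), S100a11 (348 ± 42.4), Anxa1 (158 ± 89.5), S100a10 (140 ± 41.7), Anxa6 (102 ± 15.6), S100a6 (115 ± 66.5), S100a13 (68.4 ± 32.8), S100a4 (11.7 ± 8.60) and Anxa11 (5.31 ± 2.30). Of the 9 steps between neighbours, 3 did not exceed the spread, taken as a log2 difference above 1 SD with the same sign in 3 of 3 libraries: Anxa1 and S100a10, Anxa6 and S100a6, and S100a4 and Anxa11. The order depended on the length used. With the median length of the coding transcripts, 4 of the 10 genes kept their place and Anxa2 stood above Anxa5 in every library (2320, 1717 and 2794 against 1006, 934 and 992 CPM per kilobase), because its median transcript (752.5 bases) is much shorter than its summed exons (3731 bases).

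The other genes of each family give the setting. Of 17 S100 genes in the table, 11 had a mean above 1 CPM, and of 12 annexins 9 did. Among annexins the 5 genes described made up 90.5% ± 1.33 of the summed CPM per kilobase, and Anxa5 and Anxa2 alone 42.2% ± 4.45 and 30.7% ± 3.46. The rest was mostly Anxa7 (238 ± 22.5 CPM), Anxa4 (211 ± 15.3 CPM) and Anxa3 (193 ± 10.3 CPM), each with a range of at most 1.21-fold. Anxa9 was at 1.20 ± 0.044 CPM. Anxa8, Anxa10 and Anxa13 lay below 1 CPM, with no count for Anxa10 and Anxa13 in any library.

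Among S100 genes the 5 made up 49.0% ± 4.21 of the summed CPM per kilobase. The remainder was nearly all from S100a1, S100a16 and S100b. S100a16 was at 363, 170 and 325 CPM, S100a1 at 354, 153 and 277 CPM, and S100b, a marker of Schwann cells and astrocytes, at 338, 191 and 213 CPM. Each was lowest in library 2. Per kilobase S100a1 (377 ± 146) stood at 26.1% ± 2.94 of the S100 sum, beside 25.7% ± 5.63 for S100a11. The 5 Schwann cell markers summed to 2989, 2613 and 4377 CPM and the 5 astrocyte markers to 1861, 2054 and 1150 CPM in libraries 1, 2 and 3. The astrocyte sum was mostly the connexin genes Gja1 (1095 ± 395 CPM) and Gjb6 (552 ± 130 CPM). Slc1a3 (31.5 CPM), Gfap (7.84 CPM) and Aqp4 (1.85 CPM) were low and highest in library 3, where that sum was lowest. The part of Schwann cells and astrocytes in the S100b level was not tested.

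Several low S100 genes were uneven between libraries. S100a5, best known from olfactory neurons, had 89 counts in library 1 and 1 and 2 counts in libraries 2 and 3. S100a8 and S100a9, the calprotectin subunits of neutrophils and monocytes, had 0 and 1 counts in library 1, 18 and 29 in library 2, and 43 and 52 in library 3. The sum of macrophage and microglia markers was also highest in library 3 and lowest in library 1. The 5 neutrophil markers summed to between 1.85 and 2.32 CPM, but not alike: Camp had 43, 14 and 17 counts in libraries 1, 2 and 3, whereas Retnlg (0, 18 and 18), Ngp (0, 18 and 5) and Mpo (0, 7 and 8) had none in library 1, and Ly6g had 3, 0 and 0. The part of either cell type in these counts was not tested. S100a7a was at 1.37 ± 0.561 CPM, and S100a3, S100a14, S100z, S100g and S100a2 lay below 1 CPM, the last 2 with no count.

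**Figure D2:**
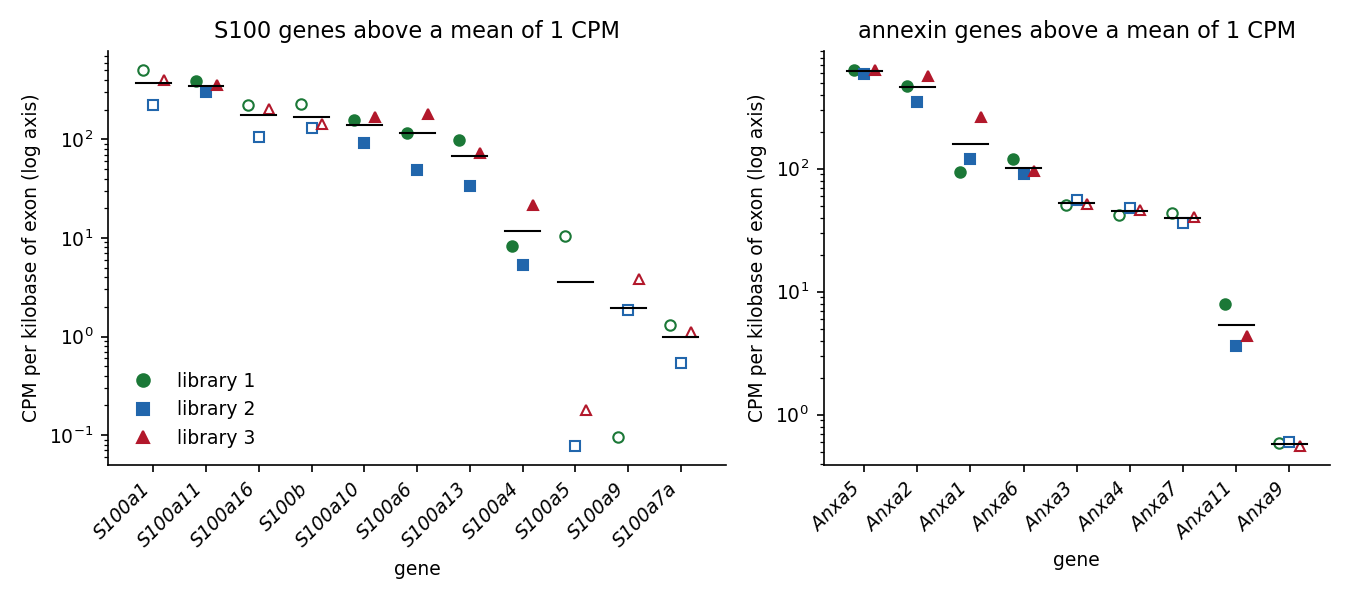
CPM per kilobase of exon on a log axis for the S100 genes (left) and annexins (right) above a mean of 1 CPM; points are libraries, bars means, and filled points mark the 10 genes described. S100a1, S100a16 and S100b, shown open, stand among the highest S100 genes, whereas the highest 4 annexins are all among those described.

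The S100 genes lie mostly in 1 stretch of chromosome 3. From S100a1 to S100a9 stand 12 of them, S100a13, S100a4 and S100a6 included, and S100a11 and S100a10 follow 2824766 bases further on, 28792 bases apart. Levels of neighbours there could differ widely. S100a14 (0.244 CPM) lies between S100a13 (48.9 CPM) and S100a16 (286 CPM), and S100a5 (1.54 CPM, nearly all of it from library 1) between S100a4 (6.82 CPM) and S100a6 (158 CPM). Other neighbours were alike: S100a7a, S100a8 and S100a9 were all low (1.37, 0.754 and 1.01 CPM). S100a1 and S100a13 are transcribed away from each other with 42 bases between them. Both were highest in library 1 and lowest in library 2, with S100a1 at 354, 153 and 277 CPM and S100a13 at 70.8, 24.2 and 51.6 CPM. This was not particular to them. S100a16, S100a11 and S100b, the last on chromosome 10, had the same highest and lowest library, as did Anxa5, Anxa6, Anxa7 and Anxa11. S100a4, S100a6 and S100a10 were lowest in library 2 but highest in library 3. Of all genes tested, 39.6% were highest in library 1 and 32.3% lowest in library 2. The levels of S100a1 and S100a13 per kilobase differed, at 377 ± 146 and 68.4 ± 32.8.

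**Figure D3:**
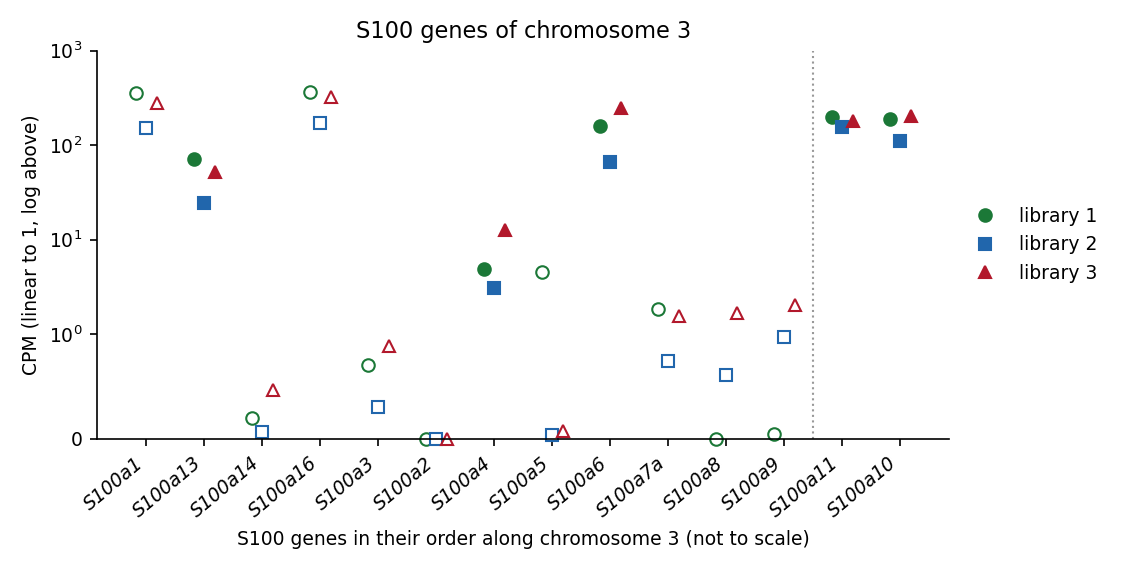
CPM of the S100 genes of chromosome 3 in their order along it, on an axis that is linear up to 1 and logarithmic above; points are libraries, filled for the genes described, and the dotted line marks the gap of 2824766 bases. S100a16 (286 CPM) and S100a6 (158 CPM) have low genes between them, and S100a7a, S100a8 and S100a9 form a low run.

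Variation between the 3 libraries was tested with edgeR's goodness-of-fit test on all 14409 genes. The test sets the spread of a gene against the trended dispersion, which was estimated from these same 3 libraries. It therefore asks whether a gene varied more than genes of like abundance, not whether it varied at all. The square root of the common dispersion was 0.372. The outcome for the 10 genes is relative to that spread. The test called 0 of the 10 genes at a Benjamini-Hochberg adjusted p-value of 0.05, where 0.437% of all genes tested were called. At an unadjusted 0.05 it named 2 of the 10, S100a6 (unadjusted p = 0.0109, edgeR adjusted p = 0.378) and Anxa1 (unadjusted p = 0.0405, edgeR adjusted p = 0.652), beside 7.04% of all genes. A p-value that misses the threshold does not show that the libraries were alike. The ranges from lowest to highest library had a median of 2.01-fold, against 1.72-fold over all genes, and ran from 1.08-fold in Anxa5 to 4.05-fold in S100a4. S100a4 and S100a6 lay at percentiles 93.3 and 92.0 of all ranges, and Anxa6 and S100a11 at 19.2 and 15.8.

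Library 2 was the lowest in 9 of the 10 genes, all but Anxa1; 32.3% of all genes tested were lowest there. Library 1 was the highest in 5 of the 10 and library 3 in the other 5, against 39.6% and 27.6% of all genes. Part of this moved with trends on GC content and length, which were fitted and removed together and not told apart. The trend fitted to GC content and length over all genes in library 2 lay between -0.33 and -0.069 on the log2 scale for those 9 genes and at 0.21 for Anxa1. Once the trends were removed, library 2 was lowest in 7 of the 10, beside 31.7% of all genes. The range of S100a13 then went from 2.92-fold to 1.79-fold, that of Anxa6 from 1.32-fold to 1.06-fold, and those of S100a4 and S100a6 from 4.05-fold and 3.74-fold to 3.42-fold and 3.32-fold.

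One gene's call turned on library 1. Without it, edgeR called S100a6 variable between libraries 2 and 3 (66.2 and 248 CPM, edgeR adjusted p = 0.00428), 1 of the 10 genes where 0.175% of all genes were called. Its adjusted p-values in the other alternatives lay between 0.191 and 0.9996 (edgeR). Without library 2 the remaining values of S100a6, 159 and 248 CPM, gave an edgeR adjusted p of 0.9996. For Anxa1 and S100a4 library 3 was the high library: without it, Anxa1 stood at 274 and 350 CPM (edgeR unadjusted p = 0.619) and S100a4 at 4.85 and 3.09 CPM (edgeR unadjusted p = 0.551). Marker sums of other cell types moved between libraries too. Macrophage and microglia (15.4, 246 and 681 CPM in libraries 1, 2 and 3), choroid plexus and lymphocyte markers were lowest in library 1 and highest in library 3, as was Anxa1. Mural markers (3177, 2738 and 4863 CPM) and Schwann cell markers (2989, 2613 and 4377 CPM) were lowest in library 2 and highest in library 3, as were S100a4, S100a6, S100a10 and Anxa2. The part of any of these cell types in the values was not tested.

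**Figure D4:**
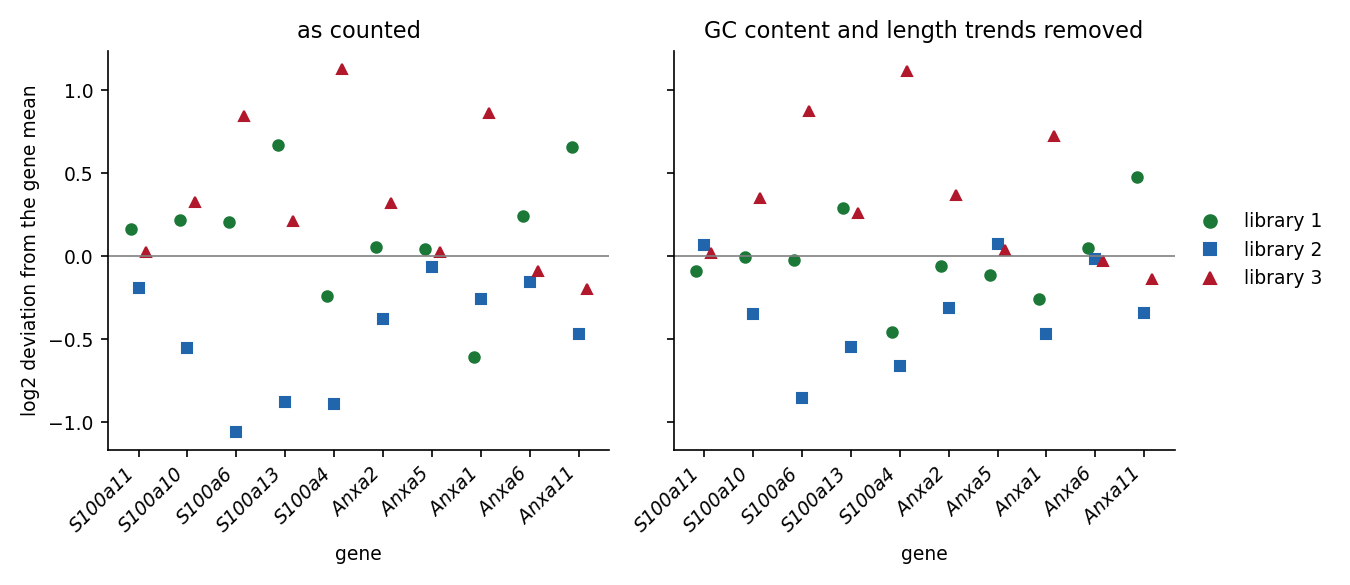
Log2 deviation of each library from the gene's own mean, as counted (left) and after correction for GC content and length (right); points are libraries. Library 2 lies below the others in 9 of 10 genes on the left and 7 of 10 on the right, and library 3 stays high for S100a4, S100a6 and Anxa1.

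Levels of S100 genes were set against those of annexins whose products they bind, in 5 pairs, as log2 differences of CPM per kilobase within each library. S100a10 lay below Anxa2 by nearly the same amount in each: the log2 difference was -1.57, -1.91 and -1.73 in libraries 1, 2 and 3 (-1.74 ± 0.17), so that Anxa2 was 3.33-fold higher. Its SD was the smallest of the 5 pairs over the 3 libraries, and became 0.047 with the GC content and length trends removed. That rank depended on library 3. Without library 3 the SD was 0.24, below that of S100a11 and Anxa1 (0.50). It was then above those of S100a11 and Anxa2 (0.057), S100a6 and Anxa11 (0.099), and S100a4 and Anxa2 (0.15). S100a10 and Anxa2 were both lowest in library 2 and highest in library 3. S100a11 lay just below Anxa2, by -0.27, -0.19 and -0.68 (-0.38 ± 0.26).

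Against Anxa1, S100a11 was higher, with log2 differences of 2.04, 1.34 and 0.43 (1.27 ± 0.81). Here S100a11 varied 1.28-fold between libraries and Anxa1 2.77-fold. S100a6 exceeded Anxa11 in every library, by 3.88, 3.74 and 5.37 (4.33 ± 0.91). S100a4 was far below Anxa2, at -5.82, -6.03 and -4.72 (-5.52 ± 0.71), with the limit on its counting given above. Each difference had 1 sign in 3 of 3 libraries. With the signs of the 3 differences permuted (exact, two-sided), every pair had p = 0.25, and 0.25 adjusted over 5 pairs, the smallest value that 3 libraries allow. The sizes moved with the length used: by the median coding transcript they were -2.99 for S100a10 and Anxa2, 0.45 for S100a11 and Anxa1, -2.69 for S100a11 and Anxa2, and -7.34 for S100a4 and Anxa2. With the full CPM divided by unshared exon bases, under the assumption given above, S100a4 lay at -4.51 to Anxa2. Without division by length S100a11 lay below Anxa1 (-1.24).

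**Figure D5:**
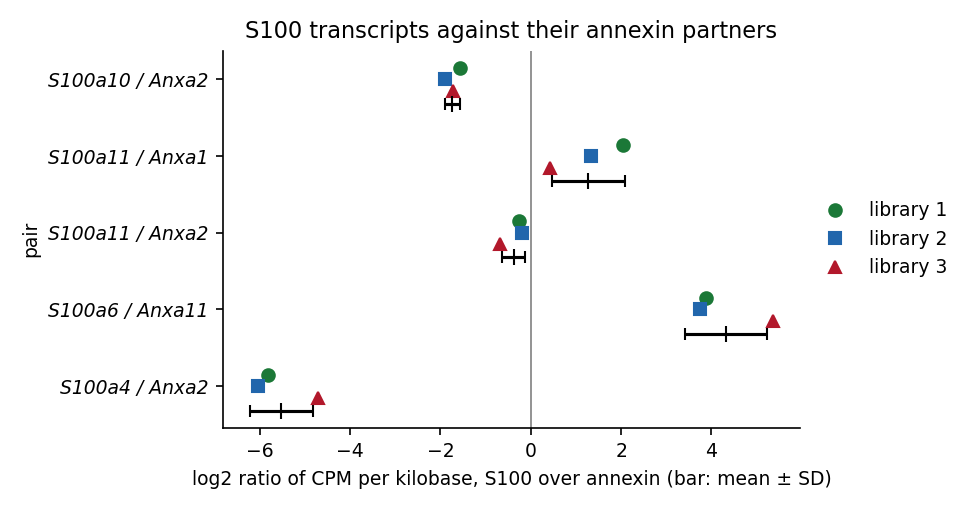
Log2 ratio of CPM per kilobase, S100 gene over annexin, for 5 pairs; points are libraries and black bars the mean ± SD (n = 3). The 3 points of S100a10 over Anxa2 lie between -1.91 and -1.57, while those of S100a11 over Anxa1 spread from 0.43 to 2.04.

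Genes that work with these proteins were followed in 5 lists of 41 genes. Of these, 35 had a mean above 1 CPM and 35 passed the filter, with a median of 90.7 CPM among the latter against 17.99 CPM for all genes tested. The edgeR goodness-of-fit test called 0 of the 35 at an adjusted p of 0.05, where 0.437% of all genes were called, and 4 at an unadjusted 0.05 (Cav1, Rasa1, Cacybp and Tlr4), beside 7.04% of all genes.

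Cell-surface plasminogen activation is the process in which the S100a10 and Anxa2 complex is best known. Of 8 genes in that list, 7 were above 1 CPM. The most abundant were Eno1, a glycolytic enzyme that also serves as a plasminogen receptor, at 465 ± 107 CPM, Plat, the tissue-type activator, at 412, 280 and 343 CPM, and Serpine2, an inhibitor of the activators, at 123, 155 and 286 CPM. Plau, the urokinase activator, and its receptor Plaur were low (4.13 ± 2.46 and 5.06 ± 1.52 CPM), and Plg, the plasminogen gene itself, had no count.

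In the list for membrane repair and its scaffolds, Ahnak, a giant scaffold that S100a10 and Anxa2 recruit, was at 334, 547 and 629 CPM. Cav1, the caveolar coat protein, was at 54.0, 95.5 and 199 CPM (unadjusted p = 0.0101, edgeR adjusted p = 0.368), and Capn2, a calcium-activated protease, at 111 ± 15.6 CPM. Dysf, the repair protein of muscle, was at 7.18 ± 3.06 CPM, and Trim72 was near 0. Cav1 and Ahnak were lowest in library 1, as were 40.4% of all genes tested. Capn2, Capn1 and Dysf were lowest in library 2, as were S100a10 and Anxa2, and Myof was lowest in library 3.

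Among binding partners, Sec31a, a coat protein of vesicles leaving the endoplasmic reticulum, was at 371 ± 22.3 CPM and Pla2g4a, a phospholipase that Anxa1 and S100a10 can hold back, at 187 ± 25.8 CPM. Pdcd6, the calcium sensor that binds Anxa11, was at 104, 107 and 110 CPM. Cacybp, which S100a6 binds, was at 10.2, 29.4 and 38.2 CPM (edgeR unadjusted p = 0.0306, edgeR adjusted p = 0.569). Rasa1, which Anxa6 recruits, was at 2.98, 19.5 and 12.9 CPM (edgeR unadjusted p = 0.00809, edgeR adjusted p = 0.338). Both were lowest in library 1, as were 40.4% of all genes tested. Of the cargoes of S100a13, Fgf1 was at 37.8, 48.5 and 66.2 CPM and Il1a had 1, 0 and 13 counts.

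Receptors for extracellular S100 proteins and for Anxa1 were uneven. Bsg, which binds S100a9 and partners monocarboxylate transporters, was at 777, 831 and 846 CPM, and the adhesion molecules Mcam and Alcam at 109 ± 45.5 and 33.6 ± 12.2 CPM. Tlr4, a receptor for S100a8 and S100a9, was at 6.47, 22.9 and 26.6 CPM (unadjusted p = 0.0257, edgeR adjusted p = 0.532), and Ager, the receptor best known for S100b, at 2.51 ± 1.24 CPM. The formyl peptide receptors Fpr1 and Fpr2, on which Anxa1 acts, had between 1 and 29 counts a library, and Fpr3 had none.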

How the data were processed

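Sorted leptomeningeal cells of 3 libraries, all of 1 group, were measured by bulk RNA sequencing after template-switching amplification. The authors deposited raw counts per gene, without normalization; the submitters' processing notes name HTSeq 0.5.3, DESeq2 1.22.1 and the build mm10, and the aligner, annotation release and strand setting were not given in the sources used here. The table's 5 rows for reads given to no gene made up between 39.1% and 45.6% of each library and were left out. Of 46983 gene identifiers, 98.9% matched GENCODE M21 on GRCm38 (the same assembly as mm10), from which coordinates, lengths and GC content came; unmatched genes were kept except where these were needed. The labels do not say that the libraries came from separate animals, so p-values measure only the spread between these samples.

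Counts were filtered with filterByExpr (minimum count 10) and library sizes scaled by TMM (edgeR 4.0.16, R 4.3.3). With 1 group there is no contrast, so spread between libraries was tested by edgeR's goodness of fit at the trended dispersion (chi-square, 2 degrees of freedom, Benjamini-Hochberg over all genes, threshold 0.05). On counts simulated for the 14409 genes with 200 changed 8-fold in 1 library, it recovered 152, with 3 false calls. The widest range among the genes described was 4.05-fold (S100a4), and no smaller change was simulated, so this recovery does not measure the power for them. Counts were drawn at the trended dispersion without scatter of single genes around it, so the false calls may be too few. Pairs were compared on log2 CPM per kilobase of merged exons, without a pseudocount, with an exact sign-flip test. Windows of 50 bases shared between genes were counted in annotated transcripts only.

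The genes and lists were chosen with earlier results of these data known. Named were the 10 genes, other S100 genes and annexins above a mean of 1 CPM, and the 3 most abundant genes of each list; others were named after their values were seen. Results of part of the list of other EF-hand proteins are not reported here. Apart from the SDs of the 5 pair differences, no likeness of pattern was ranked over 3 libraries. Alternatives were DESeq2 1.42.0 size factors, plain totals, other filters, the common dispersion, removal of GC content and length trends (splines with 5 degrees of freedom), other gene lengths, and leaving out each library. Of 13 lists of cell type markers, those that bear on a result are given in the text, and the others are given in the closing section.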

Additional observations from a re-analysis of the deposited data

How the results depend on the processing

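No paired analysis was possible because the series has 1 group. Of 110 alternatives, 102 were classed as leaving their result as it was, by broad rules. A mean or share had to move by less than 1 SD, and a number of genes to stay within a set fold. A pair difference had only to keep its sign, so its size could still move. For example, S100a11 minus Anxa2 went from -0.38 to -2.69 by median transcript length and kept its class. The number of the 10 genes called variable (0) was 1 without replicate 1, where S100a6 was called, and between 0 and 1 when each replicate was left out. Of all genes, 63 were called; this became 134 with no filter on low counts, which tests 25083 genes, and 97 with the GC content and length trends removed, for which the cause was not tested. With each replicate left out, and so fewer samples, it was between 12 and 28. S100a11 minus Anxa1 turned from 1.27 to -1.24 without division by length, since Anxa1 has the longer exons. By median transcript length 4 of 10 genes kept their place in the order. The number of the 10 lowest in library 2 (9) was 8 with plain library totals and 9 with DESeq2 size factors. Depth limits S100a4, whose counts were 96, 92 and 325.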

Other observations

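Other small calcium-binding proteins of the EF-hand class were followed beside the S100 genes. Sri, a penta-EF-hand protein that binds annexins, was at 201, 162 and 195 CPM, and Capns1, the small calpain subunit, at 122, 69.1 and 91.4 CPM; both were lowest in library 2, as 9 of the 10 S100 and annexin genes described were.

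The remaining marker lists had these sums in libraries 1, 2 and 3. Endothelial markers were at 79.4, 60.3 and 67.6 CPM and arachnoid barrier markers at 93.3, 85.9 and 89.1 CPM. Neuronal markers were at 64.6, 81.0 and 76.9 CPM, ependymal markers at 7.12, 12.3 and 12.6 CPM, and erythroid markers at 747, 185 and 312 CPM.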
